A study of Homo sapiens with 4 samples.

Results

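The highest scoring m7G peaks of HL60/MX2 cells were the 407 of 8122 listed peaks whose deposited score lay at or above the 95th percentile of the list. HL60 (HL-60 in the labels, genotype WT) is a human promyelocytic leukemia line used as a model of acute myeloid leukemia (AML), and HL60/MX2 is its derivative, labelled as drug-resistant. The series holds 4 samples, an enriched (IP) and an input library of each line, with 1 library of each kind. Both lines were grown in the same medium, and no drug treatment of the cultures is given. Peak lists of the 2 IP libraries were analysed, and the input libraries were not analysed here. Because the members were chosen by their score, the score and the peak length, which came from the same call, are descriptions only. All other features are set beside those of the other 7715 rows of the list, with exact Clopper-Pearson 95% intervals that cover counting error only. With 1 library per line no difference could be tested, and neighboring peaks or exons of a gene are not independent of each other. Read counts are not part of the lists, so neither the sequencing depth at a peak nor the level of each mRNA is known from them.

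N7-methylguanosine (m7G) is a methylated guanine that carries a positive charge. It is best known as the base of the 5' cap of mRNA, where cap-binding proteins read it during splicing, export and translation, and it also occurs inside tRNA, rRNA and mRNA. In m7G MeRIP-seq, mRNA fragments are pulled down with an antibody against m7G and sequenced, and stretches with more reads than the input are called as peaks. The RNA was decapped with an enzyme before it was fragmented. A peak marks a stretch of RNA and not the methylated base itself.

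Sequences of 6 members are printed first, because they show how differently the top of the list is composed. They were the 6 members of highest score that lay wholly in the coding sequence (CDS) of the longest coding transcript, with 60 to 300 bp, where ties in score were put in order of length. All 6 carried the score 3100, the highest in the list, which shorter peaks of this kind in ANP32B, NUTM2E, SPACA5, SPACA5B, GPA33 and ATP12A shared. INCENP, the scaffold of the chromosomal passenger complex of mitosis, had its peak at chr11:61914130-61914374 on the plus strand of hg19. CHAF1A, the large subunit of chromatin assembly factor 1, was covered at chr19:4422563-4422792 (plus). SUPT5H, a subunit of the transcription elongation factor DSIF, was covered at chr19:39943996-39944161 (plus). LUC7L3, a splicing factor of the U1 particle, was covered at chr17:48822013-48822174 (plus). CR1, a complement receptor, was covered at chr1:207742450-207742583 (plus), and GAGE12C, a cancer-testis antigen, at chrX:49298484-49298604 (plus). Capitals mark runs of 10 or more purines (A or G).
INCENP: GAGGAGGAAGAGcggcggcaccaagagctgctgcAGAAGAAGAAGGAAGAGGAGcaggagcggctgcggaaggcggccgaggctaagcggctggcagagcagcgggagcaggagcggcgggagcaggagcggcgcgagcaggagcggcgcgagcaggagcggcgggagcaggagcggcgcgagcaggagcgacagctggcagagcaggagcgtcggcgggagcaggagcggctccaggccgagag
CHAF1A: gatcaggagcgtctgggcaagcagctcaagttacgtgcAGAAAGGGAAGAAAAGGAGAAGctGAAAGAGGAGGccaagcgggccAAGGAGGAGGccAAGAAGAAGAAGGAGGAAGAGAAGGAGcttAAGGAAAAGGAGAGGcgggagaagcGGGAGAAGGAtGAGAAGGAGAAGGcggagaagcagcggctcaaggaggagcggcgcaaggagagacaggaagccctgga
SUPT5H: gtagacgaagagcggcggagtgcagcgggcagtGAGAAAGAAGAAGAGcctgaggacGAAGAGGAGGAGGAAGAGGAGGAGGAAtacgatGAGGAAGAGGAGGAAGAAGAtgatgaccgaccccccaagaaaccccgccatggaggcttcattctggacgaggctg
LUC7L3: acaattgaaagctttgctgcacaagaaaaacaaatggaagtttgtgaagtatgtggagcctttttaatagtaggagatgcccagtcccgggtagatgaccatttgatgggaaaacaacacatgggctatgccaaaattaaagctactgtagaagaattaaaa
CR1: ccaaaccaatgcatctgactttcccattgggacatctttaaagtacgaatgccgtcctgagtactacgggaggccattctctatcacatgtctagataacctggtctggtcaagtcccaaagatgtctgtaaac
GAGE12C: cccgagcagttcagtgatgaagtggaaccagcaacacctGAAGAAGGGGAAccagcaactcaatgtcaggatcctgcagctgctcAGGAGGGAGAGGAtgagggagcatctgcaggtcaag

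The CHAF1A peak held 7 such runs with 108 bases in all, the SUPT5H peak 3 runs with 62 bases, and the INCENP and GAGE12C peaks 2 runs each. The LUC7L3 and CR1 peaks held none. GC content ranged from 38.3% in LUC7L3 to 72.2% in INCENP. The 31-mers of the CR1 peak occurred at least 3 times in the genome and those of the GAGE12C peak at least 5 times, so reads of these peaks may belong to other copies.

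An unbroken purine run of 43 bases is shown next for a member that lay wholly in the CDS, a choice made after the values were seen. The stretch printed lies at chr12:18854548-18854605 (minus strand) in PLCZ1, the phospholipase C of sperm, and has 62.1% GC. Capitals mark runs of 20 or more purines.
PLCZ1: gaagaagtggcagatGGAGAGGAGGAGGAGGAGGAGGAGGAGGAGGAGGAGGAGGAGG

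The start of the coding sequence is shown for the 3 highest scoring members at a start codon for which at least 60 coding bases lay inside the peak, again chosen after the values were seen. RAB20, a small GTPase of endosomes, is printed from chr13:111213777-111213866 (minus), SUDS3, a subunit of the SIN3 deacetylase complex, from chr12:118814497-118814586 (plus), and PDCD5, a protein linked to programmed cell death, from chr19:33072168-33072233 (plus). Capitals mark the start codon. GC content was 61.1%, 75.6% and 66.7% in these 3 stretches.
RAB20: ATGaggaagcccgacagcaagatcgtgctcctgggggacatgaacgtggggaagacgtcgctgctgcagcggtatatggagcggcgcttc
SUDS3: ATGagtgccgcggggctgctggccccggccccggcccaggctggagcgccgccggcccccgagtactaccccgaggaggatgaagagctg
PDCD5: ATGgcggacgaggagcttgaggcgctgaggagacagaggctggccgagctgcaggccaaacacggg

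The lowest score inside the cut-off was 1070.7 and the highest outside it was 1069.3. The median score was 1477 among members and 245 among the other rows. The scale of the score is not stated in the sources used here. The 5 members just inside lay in FRYL, CCDC43, RBFOX1, PLGRKT and NEB, with scores up to 1079. Of the 5 rows just outside, 4 lay in CNGA2, ST3GAL2, SUN1 and WDR49 at the same score of 1068, and 1 lay over no same-strand protein-coding exon. At the other end, 53 members shared the value 3100 and the next score below was 2988, so these 53 peaks cannot be ordered by score. In the HL60 list the same percentile was at 686.8, with 405 peaks at or above it, of which 8 stood at 3100 and 3 above. Scores repeated often, and the 407 members held 269 distinct values.

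**Figure D1:**
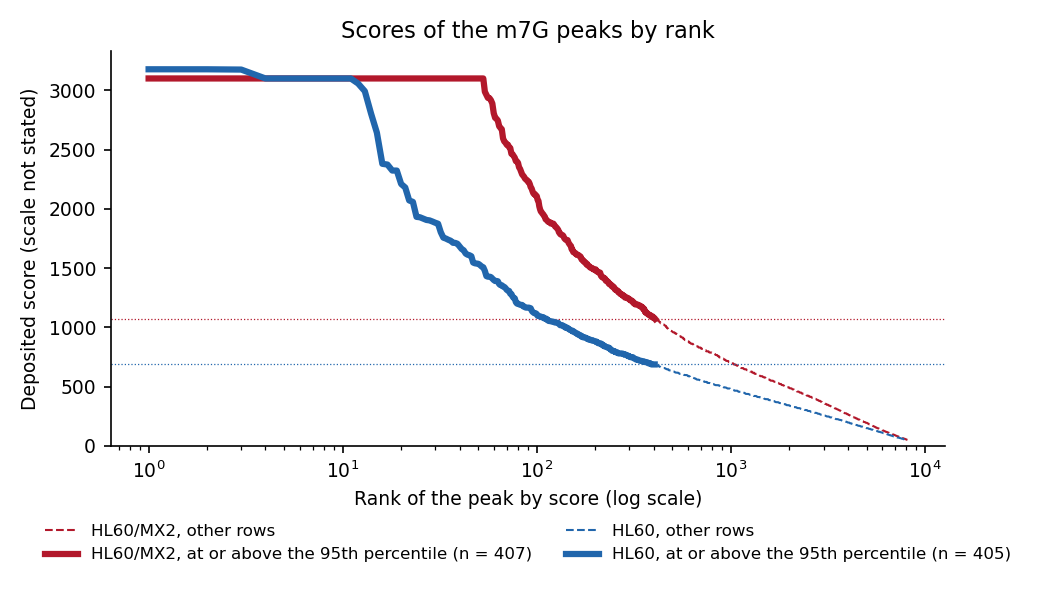
Deposited score (y axis, scale not stated) against the rank of each peak (x axis, log scale) in HL60/MX2 (red) and HL60 (blue). Dashed lines are the other rows, thick lines the peaks at or above the 95th percentile of their list (407 and 405), dotted lines the percentiles, and the flat red part the 53 HL60/MX2 peaks at 3100.

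Of the 407 members, 384 (94.3%, 91.6-96.4%) overlapped a same-strand exon of an annotated protein-coding gene, while 23 did not. The share in the other rows was 96.2% (95.7-96.6%). The 384 peaks fell in 369 genes, and 8 members overlapped exons of more than 1 gene. Among the 5752 genes with any HL60/MX2 peak, 6.42% carried a member. A single member was found in 357 genes, 2 members in 9 genes and 3 members in 3 genes. Of the 369 genes, 152 (41.2%, 36.1-46.4%) also carried a lower scoring HL60/MX2 peak.

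With ties put in order of length, the 20 highest scoring peaks ran from 315 to 1561 bp. All 20 stood at 3100, so they were the longest of the 53 peaks that shared this score, and their lengths follow from that order. In the CDS lay 15 of them, and 15 covered a whole annotated exon of any isoform. Among all 53 the CDS held 73.9% of the 46 placed on the longest coding transcript, and 47.2% covered a whole exon. In the list the CDS held 59.9% of the peaks so placed, and 28.6% covered a whole exon. Several of the genes encode proteins that bind or process RNA, a grouping made after the values were seen. Exon positions given here are those of the longest coding transcript. HNRNPU, a nuclear protein that binds RNA and chromatin, carried a peak of 909 bp in its first exon, with 69.9% GC. HNRNPL, a splicing regulator that binds CA repeats, also carried a peak in its first exon, of 411 bp with 76.9% GC. PRPF38B, a splicing factor, carried 868 bp in its last exon, with 42.6% GC. PNISR and SREK1, proteins with arginine and serine rich stretches, carried peaks of 936 and 363 bp in internal exons. PPIG, a cyclophilin of nuclear speckles, carried 908 bp in its last exon. ZC3H13, a subunit of the m6A methyltransferase complex, carried 556 bp in exon 12 of 19. NCL, the nucleolar RNA-binding protein nucleolin, had 478 bp in exon 3 of 15.

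Other genes of the 20 had different roles. ARHGAP30, a GTPase activating protein of blood cells, carried 938 bp of its last exon. ZNHIT6, a factor of snoRNP assembly, carried a peak of 766 bp in its first exon. So did AEBP2, a subunit of Polycomb repressive complex 2 (697 bp, 74.5% GC). USP24, a deubiquitinase (577 bp, 76.9% GC), and GLRX5, an iron-sulfur cluster protein of mitochondria (399 bp, 74.9% GC), also had their peaks in the first exon. TWNK, the mitochondrial DNA helicase, carried 679 bp in its first exon, mostly in the 5'UTR. ANP32B, an acidic histone chaperone, carried 438 bp in its 3'UTR and a second peak of 119 bp in its CDS, both at 3100. ZSWIM9, a zinc finger SWIM gene, carried 777 bp, MUC12, a membrane mucin, 776 bp, RAB20 328 bp and PDE4DIP, a centrosome and Golgi protein, 315 bp. An HL60 peak was found in 4 of these 20 genes (RPGR, MUC12, USP24 and PDE4DIP; 20%, 5.73-43.7%), an interval that holds the 42.1% of all genes with an HL60/MX2 peak.

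Not all peaks at 3100 were long. Of the 53, 6 were shorter than 50 bp, in CEACAM20 (47 bp), COL17A1 (41 bp), TMEM175 (37 bp), RCBTB2 (28 bp), SLC25A12 (17 bp) and MYH15 (8 bp). The median length was 222 bp (95% interval of the median 140-328 bp) among the 53 and 143.5 bp (130-159 bp) among the other 354 members. The genes of the 53 carried an HL60 peak in 13 of 49 cases (26.5%, 14.9-41.1%), against 163 of 323 (50.5%, 44.9-56.0%) for the genes of the other members.

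Several members fell in 12 genes. INCENP carried 3 in neighboring exons, with scores of 3100, 3100 and 2683 over 135, 245 and 79 bp. MUC16, the CA125 mucin, carried 3 of 268, 1468 and 262 bp with scores of 1489, 2400 and 1416, and the longest of them was the second longest member of all. NEB, the giant muscle protein nebulin, also carried 3, with scores of 1799, 2336 and 1079, and each lay in repeated sequence with at least 2 copies in the genome. The 9 genes with 2 members were ANP32B, CR1, LIPE, MUC12, PKHD1, RASA4, RBFOX1, SMARCC1 and UNC13A. In LIPE, the hormone-sensitive lipase, both peaks lay in the CDS with nearly the same score (1777 and 1781). In SMARCC1, a subunit of the SWI/SNF remodeling complex, 1 peak lay at the start codon (307 bp, 1111) and 1 in the CDS (115 bp, 1245).

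Position along the mRNA was classed for 324 members on the gene's longest coding transcript. Bases up to 100 nt from the start or the stop codon formed separate classes. Each peak was given to the class with the largest part of its bases. A long peak that reached the start codon could thus be classed as CDS. The CDS held 61.4% of the members (55.9-66.7%), near its 59.8% (58.6-61.0%) in the other rows and 59.9% in the whole list. The 5' end, meaning the 5'UTR or the start codon, held 23.8% (19.2-28.8%) against 17.3% (16.3-18.2%) in the other rows, where the whole list stood at 17.6%. The 3'UTR held 10.8% (7.64-14.7%) against 18.6% (17.6-19.6%), with 18.2% in the whole list. The intervals of members and other rows did not overlap for the 5' end and the 3'UTR and did overlap for the CDS. Within the 5' end, the start codon held 16.7% of members against 11.7%, and the 5'UTR 7.10% against 5.56%. The stop codon held 4.01% against 4.34%.

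By exon, the first exon held 23.8% of classed members (19.2-28.8%) and 14.5% of the other rows (13.6-15.4%). The last exon held 20.1% (15.8-24.8%) and 27.5% (26.4-28.6%). Peaks that began in the first 200 nt of the transcript made up 23.8% of members and 15.9% of the other rows. In the HL60 list the highest scoring peaks had 13.03% (9.59-17.1%) at the 5' end and the other rows 10.2% (9.48-11.0%), and the 3'UTR held 17.3% (13.4-21.8%) and 21.2% (20.2-22.3%), so the intervals overlapped for both.

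The members were also set against the rest of the list in steps of score. With all rows cut into 20 classes of equal number by score, the share at the 5' end was 13.98 to 21.6% in the 19 lower classes and 23.8% in the highest. The 3'UTR share was 15.6 to 22.1% in the 19 lower classes and 10.8% in the highest. Median GC was 46.3 to 49.3% in the lower classes and 51.8% in the highest. The highest class thus lay outside the range of the 19 others for all 3 measures. The class just below it came nearest for each, at 21.6% (17.3-26.4%), 15.6% (11.9-19.9%) and 49.3%, and its intervals overlapped those of the members for both shares. The highest class of the HL60 list (404 peaks) also lay outside the range of its lower classes for 2 of the 3 measures. Its 3'UTR share was 17.3% against 17.6 to 25%, and its median GC 46.3% against 44 to 45.9%. Its 5' end share of 12.8% lay inside their range of 7.76 to 13.2%. Among the 53 members at 3100 the 5' end held 17.4% (7.82-31.4%), near the 17.3% of the other rows, and the 3'UTR 6.52% (1.37-17.9%). This share depends on the class rule, since long peaks in first exons could be counted as CDS. The 20 highest included 8 in the first exon, of which those of HNRNPU, ZNHIT6, AEBP2, USP24, HNRNPL and GLRX5 were classed as CDS.

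**Figure D2:**
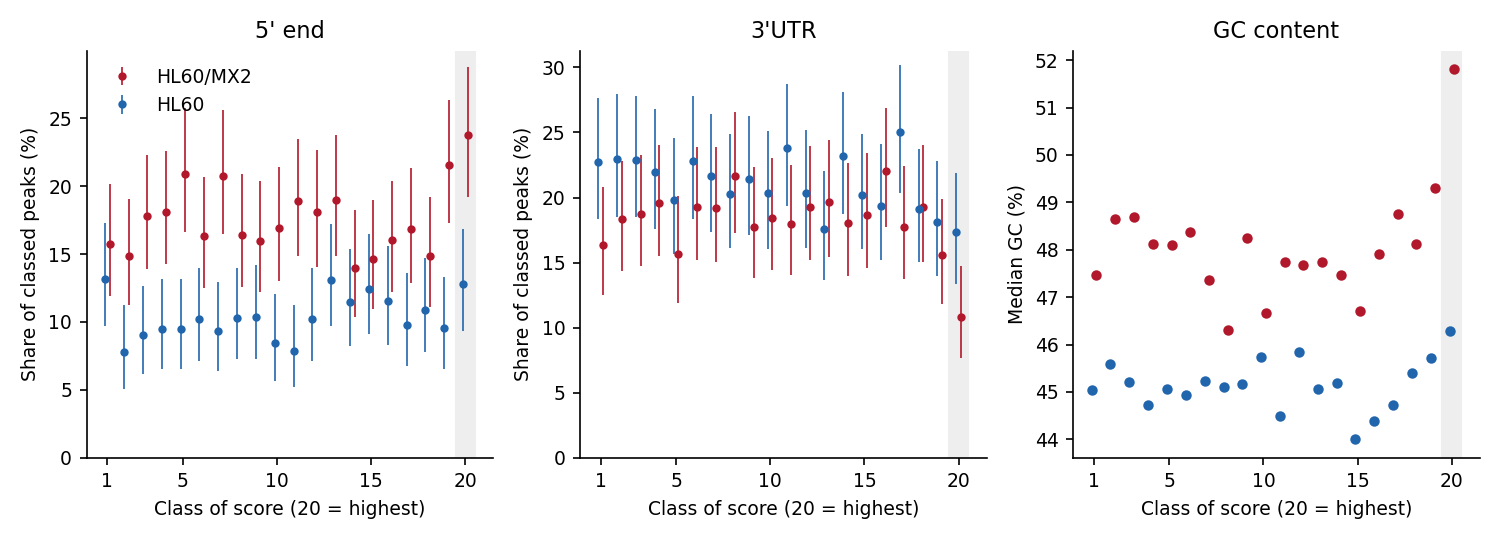
Share of classed peaks at the 5' end (left) and in the 3'UTR (middle), and median GC content (right), in 20 classes of equal number by score, for HL60/MX2 (red) and HL60 (blue). Points are shares with 95% intervals or medians, and the grey band marks the highest class, where HL60/MX2 stood at 23.8%, 10.8% and 51.8%.

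Members were richer in G and C than the other rows. Median GC was 51.8% (quartiles 44 and 62.1%) against 47.8% (40.7 and 56.8%), and in 200 bp around each midpoint it was 51.0% against 46.0%. The HL60 list had the same order, with a median GC of 46.3% in its highest scoring peaks and 45.1% in the others. Median G was 27.3% in members and 24.2% in the other rows, median C 24.7% and 22.7%, and median T 20.7% and 23.9%. Within each mRNA class the median of members was also the larger of both, but the intervals of the medians overlapped in all 5 classes. In the CDS the medians were 50.5% (48.1-52.0%) and 48.0% (47.6-48.5%), and at the start codon 66.5% (61.5-71.4%) and 60.5% (58.8-61.5%). In the 3'UTR they were 45.1% (40.7-50.2%) and 41.3% (40.6-42.2%), in the 5'UTR 63.9% and 59.1%, and at the stop codon 56.5% and 46.1%. In first exons the medians were 69.0% (66.1-72.0%) and 64.2% (63.1-65.3%), and in later exons 49.2% (47.4-50.7%) and 46.4% (46.1-46.7%). The intervals did not overlap in either of these groups.

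Length and GC moved with these shares. In the class of GC above 53.4%, the upper of 3 equal classes of the list, the 5' end held 40.1% of members (32.1-48.5%) and 33.6% of the other rows (31.5-35.7%), and this class held 59 of the 77 members at the 5' end. In the middle class it held 8.82% and 10.4%, and in the lower class 12% and 8.23%, with overlapping intervals in all 3 classes. The 3'UTR share was lower in members in each GC class, at 20% against 31.7%, 10.8% against 17.1% and 6.12% against 6.78%. These intervals also overlapped in each GC class. By length, in peaks over 201 bp the 3'UTR held 24.0% of members (16.7-32.6%) and 46.3% of the other rows (44.1-48.5%), and the 5' end 25.6% and 16.4%. In peaks up to 90 bp the order of both was turned, with 5.38% (1.77-12.1%) and 3.07% (2.38-3.89%) in the 3'UTR and 13.98% (7.66-22.7%) and 15.8% (14.3-17.5%) at the 5' end, and the intervals overlapped. In peaks of 91 to 201 bp the 3'UTR held 0.909% and 8.09%, and the 5' end 30% (21.6-39.5%) and 19.45% (17.8-21.2%). What part length or GC has in the shares of members was not tested.

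The members had a median length of 150 bp (quartiles 83 and 263.5 bp), against 132 bp (71 and 225 bp) in the other rows. Peaks of 500 bp or more made up 10.1% of members and 2.86% of the other rows, and peaks under 50 bp 14.005% and 16.1%. The 10 longest members were led by RPGR (1561 bp) and MUC16 (1468 bp), followed by a peak of 1396 bp over no same-strand protein-coding exon. POLR2A, the large subunit of RNA polymerase II, came next (1091 bp over a whole annotated exon). FAM72D (1000 bp) and GOLGA6L4 (995 bp) lay in duplicated sequence. A peak over no same-strand protein-coding exon (971 bp), ARHGAP30 and HIRIP3, a histone-binding protein (938 bp each), and PNISR (936 bp) made up the rest. A whole annotated exon of any isoform was covered by 38.3% of members (33.6-43.2%), 28.1% of the other rows (27.1-29.1%) and 28.6% of the list. The HL60 list had 34.6% (29.9-39.4%) in its highest scoring peaks and 28.1% (27.1-29.1%) in the others. A start or end exactly at an exon end was found in 75.9% and 68.3%.

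Long purine runs were present in a larger share of members than of the other rows. A run of 20 or more purines on the strand of the gene was present in 28 members (6.88%, 4.62-9.79%), in 2.09% of the other rows (1.78-2.43%) and in 2.33% of the list. The shares for 15 or more were 15.7% (12.3-19.6%) and 6.69% (6.14-7.27%), and for 30 or more 2.70% (1.36-4.78%) and 0.570% (0.415-0.765%). Runs of 20 or more pyrimidines, the complement, were in 1.72% of members (0.694-3.51%) and 1.19% of the other rows (0.962-1.46%). In the HL60 list a purine run of 20 or more was in 1.73% of the highest scoring peaks (0.698-3.53%) and 1.49% of the others (1.23-1.78%). These lists were not tested against each other.

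The share was highest among the peaks at the maximum score, with 11 of the 53 members at 3100 (20.8%, 10.8-34.1%) against 17 of the other 354 (4.80%, 2.82-7.58%). Of the 28 members, 19 lay in the CDS and 19 covered a whole exon. In all 28, at least 1 of the up to 5 31-mers searched occurred only once in the genome, while others may be repeated. Of the 28, 1 overlapped an HL60 peak. Their median length was 365.5 bp, against 248 bp for the other rows with such a run. In peaks over 201 bp the shares were 15.3% (10.0-21.9%) in members and 4.25% (3.50-5.11%) in the other rows, in peaks of 91 to 201 bp 2.92% and 1.44%, and in peaks up to 90 bp 0% (up to 3.21%) and 0.613%. The part of length in the difference was not tested. Runs of 30 nt or more were in 11 members, led by RPGR, the retinitis pigmentosa GTPase regulator (329 nt), KAT6B, a histone acetyltransferase (44 nt), and PLCZ1 (43 nt). Next came HNRNPU and AEBP2 (37 nt each), RTF1, a partner of the PAF1 elongation complex (33 nt), and ZC3H13 (32 nt). PPP1R37, a regulator of protein phosphatase 1, and NISCH held 31 nt each, as did a member on chromosome 9 over no same-strand protein-coding exon. SREK1 held 30 nt. Codons made of purines alone encode glutamate, lysine, arginine or glycine.

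**Figure D3:**
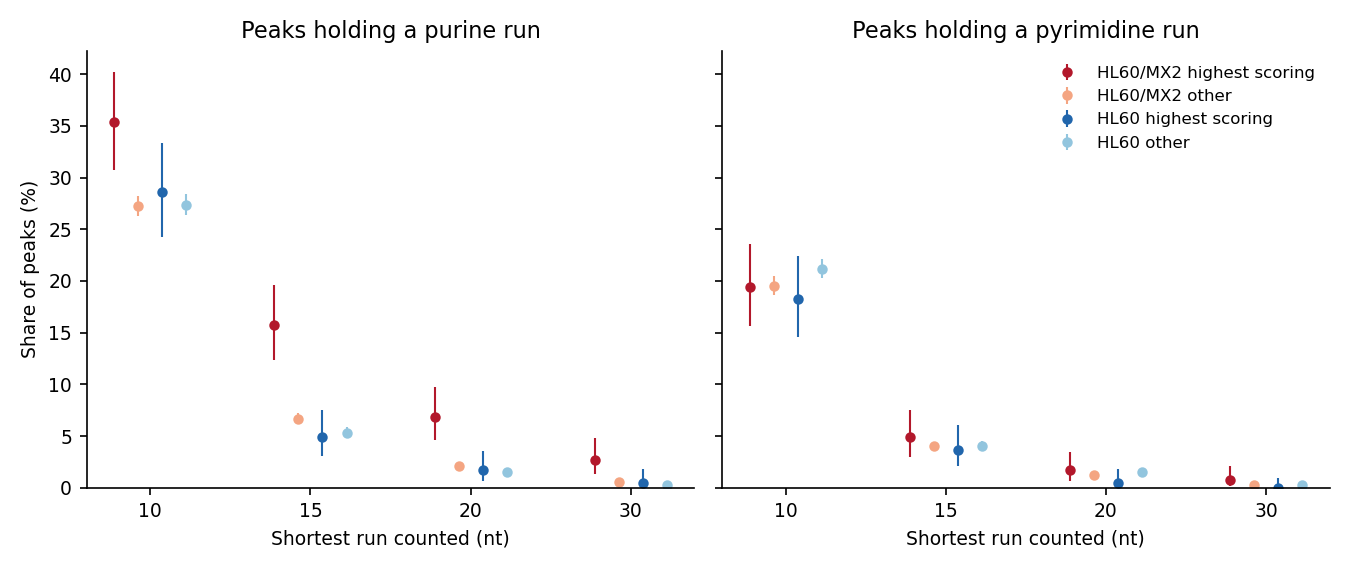
Share of peaks (y axis) that hold a purine run (left) or a pyrimidine run (right) of at least the length on the x axis, for the highest scoring and the other peaks of HL60/MX2 (red, orange) and HL60 (dark and light blue), with exact 95% intervals; the 4 lengths are evenly spaced and not to scale. The highest scoring HL60/MX2 peaks lie above the other groups for purine runs of 15 or more (15.7% against 6.69% in the other HL60/MX2 rows) and near them for pyrimidine runs.

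Short motifs differed less. GGAAA or GGAAG was present in 47.4% of members (42.5-52.4%), 42.8% of the other rows (41.7-43.9%) and 43.0% of the list, on the strand of the gene only. A match is a description of the letters and not a methylation site. A 5-base motif of CTG followed by GA, GG, TA or TG was present in 61.4% (56.5-66.2%) and 56.9% (55.8-58.0%). By length, GGAAA or GGAAG was in 16.8% of members and 21.1% of the other rows up to 90 bp, in 47.4% and 44.9% from 91 to 201 bp, and in 69.4% and 63.1% above. A pattern that can fold into a G-quadruplex (4 runs of at least 3 G with short loops) was in 25 members (6.14%, 4.01-8.93%) and in 2.06% of the other rows (1.76-2.40%). Among peaks above 53.4% GC, the shares were 11.7% (7.37-17.3%) and 5.18% (4.35-6.12%). In HL60 it was in 0.741% of the highest scoring peaks and 0.913% of the others.

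By gene family, the members are read against the 6.42% of genes with an HL60/MX2 peak that carried one. Of the genes for DNA repair and topoisomerases, 4 of the 12 with a peak carried a member (33.3%, 9.92-65.1%). They were ERCC1, a nuclease subunit of excision repair (score 1498, 158 bp), ATR, the replication checkpoint kinase (1315, 25 bp), TOP1, topoisomerase I (1214, 124 bp with a purine run of 16), and TOP2B, topoisomerase II beta (1192, 60 bp). ATR alone of these 4 genes carried an HL60 peak. Among translation initiation factors, 2 of 7 genes with a peak carried a member, EIF5B (2917, 90 bp) and EIF3A (2520, 401 bp), and neither had an HL60 peak. Only 2 cytosolic ribosomal protein genes had a peak, and none was a member.

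Chromatin modifier genes carried a member in 3 of 22, KAT6B (2066), HDAC1, a histone deacetylase (1388, at the start codon), and SMARCC1. Of the ABC transporters, 3 of 21 carried one (14.3%, 3.05-36.3%), an interval that holds the 6.42% of all genes. They were ABCA8 (1286, 53 bp), ABCC9 (1262, 43 bp) and ABCA12 (1098, 125 bp), all in the CDS and all in genes with HL60 peaks at other positions. Of the dyneins and kinesins, 4 of 39 did, DNAH8 (1889, 14 bp), KIF16B (1780), KIF27 (1391) and DYNC1I1 (1343). Zinc finger genes carried a member in 12 of 151 (7.95%, 4.17-13.5%), the highest in ZNF236 and ZNF574 (3100 each), ZNF345 (2594), ZNF616 (2513), ZNF326 (2247) and ZNF677 (1876). Among solute carriers it was 5 of 114 (SLC25A12, SLC9A7, SLC5A8, SLC28A3 and SLC4A4) and among collagens 3 of 25 (COL17A1, COL7A1 and COL2A1).

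The remaining lists gave small counts. Mucins carried a member in 2 of 9 genes, keratins in 2 of 18 (KRT34 and KRT16), cadherins in 2 of 31 (CDH9 and CDH2), heat shock proteins in 1 of 20 (HSPA6), ubiquitin-specific proteases in 1 of 23 (USP24) and olfactory receptors in 1 of 37 (OR2T7). The cap and m7G genes had 1 of 9, NCBP3, a cap-binding partner of export (1367, at the start codon), and the MAP kinase pathway 1 of 11, RASA1 (1335). No member was found in the listed voltage-gated channel (49), AML driver (12), respiratory chain (12) or histone (3) genes with a peak. The intervals of these shares reached up to 7.25%, 26.5%, 26.5% and 70.8% in that order, so each held the 6.42% of all genes. Genes outside these lists were not counted. Of cell type markers, 2 myeloid genes had an HL60/MX2 peak and neither carried a member, and neither did the neuron (3), epithelial (5) or lymphoid (2) markers with a peak. Among muscle markers 1 of 6, NEB, did. A peak list gives no expression level, so these counts do not identify the cells.

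Splicing factor, hnRNP and RNA helicase genes, a list drawn up after the top genes were seen, carried a member in 7 of the 46 with a peak (15.2%, 6.34-28.9%). All genes with an HL60/MX2 peak stood at 6.42%, but a list made with the top genes in view cannot be fairly set against it. The values of this list are descriptions only. The 5 with the score 3100 were HNRNPL, HNRNPU, LUC7L3, PRPF38B and SREK1. DDX54, an RNA helicase (2744), and HNRNPM (1175) followed. An HL60 peak was found in none of these 7 genes, while 10 of the 46, and 42.1% of all genes with an HL60/MX2 peak, carried one. A list of recently duplicated primate genes, also drawn up afterwards and with the same limit, carried a member in 17 of 59 (28.8%, 17.8-42.1%). Of the 17, 4 had an HL60 peak.

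Sequences present in several copies made up a larger share of members than of the other rows. In 38 members (9.34%, 6.69-12.6%), every one of up to 5 31-mers searched occurred more than once in the genome, against 4.16% of the other rows (3.73-4.63%) and 4.42% of the list. The HL60 list had 11.9% (8.87-15.4%) and 4.10% (3.66-4.56%). SPACA5 and SPACA5B, a pair of sperm genes on the X chromosome, carried peaks of the same length of 101 bp and the same score of 3100. Members of this kind were also in NUTM2E (3100), AMY1A, a salivary amylase (2889), NOTCH2NLA (2559), PRR20C (2541), PDZK1 (2123), FAM72D (1976), FAM72A (1970), GOLGA6L26 (1907), GOLGA6L24 (1771) and RASA4 (1597 and 1090). How the reads of such copies were assigned is not given in the sources used here, so these genes are uncertain.

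Peaks at the same place in the parental line were rare. An HL60 peak was overlapped by 32 members (7.86%, 5.44-10.9%), by 6.001% of the other rows (5.48-6.55%) and by 6.09% of the list, with a requirement of 1 bp on the same strand. At least 50% of both peaks was shared by 21 members (5.16%), against 3.41% of the other rows. At the level of genes, 175 of the 369 genes with a member carried an HL60 peak somewhere (47.4%, 42.2-52.7%), against 41.8% (40.4-43.1%) of the genes with other HL60/MX2 peaks only and 42.1% of all. At a cut-off at the 99th percentile the order turned (34.7% and 42.3%), and among genes with a member at 3100 the share was 26.5%. The share was 33.8% (23.4-45.4%) in genes with a member at the 5' end and 54.3% (46.8-61.5%) in those with a member in the CDS, and the other rows gave 31.9% and 49.0%. The other 194 genes with a member had no HL60 peak.

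The HL60 scores of the 32 overlapped peaks ranged from 54.54 to 3175 with a median of 299.7 (95% interval 137-516). The 463 HL60 peaks overlapped by other rows had a median of 199.6 (171-218), and the intervals overlapped. Without HL60/MX2 peaks under 50 bp the order turned, at 175.2 for members and 204.1 for the other rows. In 8 of the 32 pairs (25%, 11.5-43.4%) the HL60 peak was also at or above the 95th percentile of its own list, against 34 of 463 (7.34%, 5.14-10.1%) and 8.48% of all 495 pairs. Spearman's rank correlation of both scores over the 495 pairs was 0.064, given as a description, since the pairs come from 1 library of each line. The 8 pairs high in both lines lay in ZNF236 (3100 in HL60/MX2 and 3100 in HL60), MOB4, a kinase-associated adaptor (2255 and 3175), LMTK3, a membrane kinase (2402 and 2210), UNC13A, a vesicle priming protein of synapses (1893 and 1111), PDE4DIP (3100 and 798), MUC12 (1525 and 914), ATP8A2, a lipid flippase (1513 and 875), and PKHD1, the fibrocystin gene (1103 and 834, a peak of 3 bp). The peaks of LMTK3 and UNC13A had the same start and end in both lines, as did 9 of the 32 pairs (28.1%, 13.7-46.7%), against 14.7% (11.6-18.2%) of the other pairs.

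The 10 overlapping members of highest HL60/MX2 score were USP24, PDE4DIP, TMEM178B, ZNF236 and ATP12A at 3100, GET1-SH3BGR (2960), C19orf84 (2768), ARL15 (2568), LMTK3 (2402) and RP11-1212A22.4 (2291). Their HL60 scores were 115.4, 798, 137, 3100, 516, 316, 65.03, 283, 2210 and 78.49 in that order. A high HL60/MX2 score thus stood beside both low and high HL60 scores. In USP24 the HL60 peak covered 78 bp of the 577 bp of the member.

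**Figure D4:**
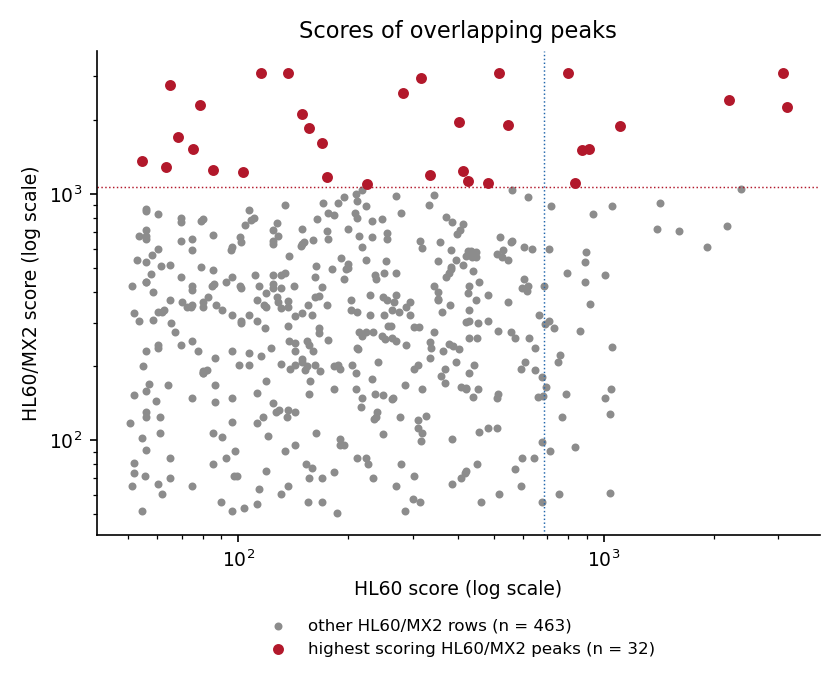
HL60/MX2 score (y axis, log scale) against HL60 score (x axis, log scale) of the 495 overlapping pairs of peaks, with the 32 highest scoring HL60/MX2 peaks in red. Dotted lines are the 95th percentiles of each list, and 8 red points lie to the right of the HL60 percentile.

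Sequences of overlapping members are printed for the 4 of highest score that lay wholly in the CDS with 60 to 300 bp. They lie at chr13:25255794-25255858 (plus) in ATP12A, the catalytic subunit of a proton-potassium pump, chr21:40883607-40883671 (plus) in the readthrough gene GET1-SH3BGR, chr15:23575868-23575974 (minus) in GOLGA6L26, whose 31-mers occurred at least 5 times in the genome, and chr19:17740954-17741097 (minus) in UNC13A. Capitals mark runs of 10 or more purines, which all but the UNC13A peak held.
ATP12A: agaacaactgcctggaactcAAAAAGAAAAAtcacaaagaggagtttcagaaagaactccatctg
GET1-SH3BGR: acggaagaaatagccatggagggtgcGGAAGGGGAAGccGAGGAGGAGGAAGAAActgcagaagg
GOLGA6L26: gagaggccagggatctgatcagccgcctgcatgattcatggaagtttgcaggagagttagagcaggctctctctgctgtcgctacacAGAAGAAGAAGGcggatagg
UNC13A: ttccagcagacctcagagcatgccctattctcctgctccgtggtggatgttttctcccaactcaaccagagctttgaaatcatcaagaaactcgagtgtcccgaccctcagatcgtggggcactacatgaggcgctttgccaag

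By chromosome, members made up 8.86% of the 440 HL60/MX2 peaks of chromosome 19 (6.38-11.9%), the highest share. This chromosome held 39 members, 9.58% of the set, against 5.42% of the list. The next shares were 7.10% on chromosome 13 (3.84-11.8%) and 6.98% on chromosome 10 (4.43-10.4%), and the lowest of the autosomes were 3.23% on chromosome 4 (1.73-5.47%) and 2.49% on chromosome 8 (1.08-4.85%). The intervals of chromosomes 19 and 8 left out the 5.01% of the whole list, and those of the other chromosomes held it. With an interval for each chromosome, some may leave it out through counting error alone. With 1 member kept for each gene, chromosome 19 held 9.21% of the members and 5.96% of the other rows. In HL60 the share on chromosome 19 was 4.56%, and the highest was 9.49% on chromosome 18. The members of chromosome 19 were not more often in zinc finger genes than its other peaks, at 17.9% (7.53-33.5%) and 20.2% (16.4-24.5%). Their median GC was 53.9%, below the 57.1% of the other peaks of this chromosome, and the 5' end held 23.3% and 27.6%.

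**Figure D5:**
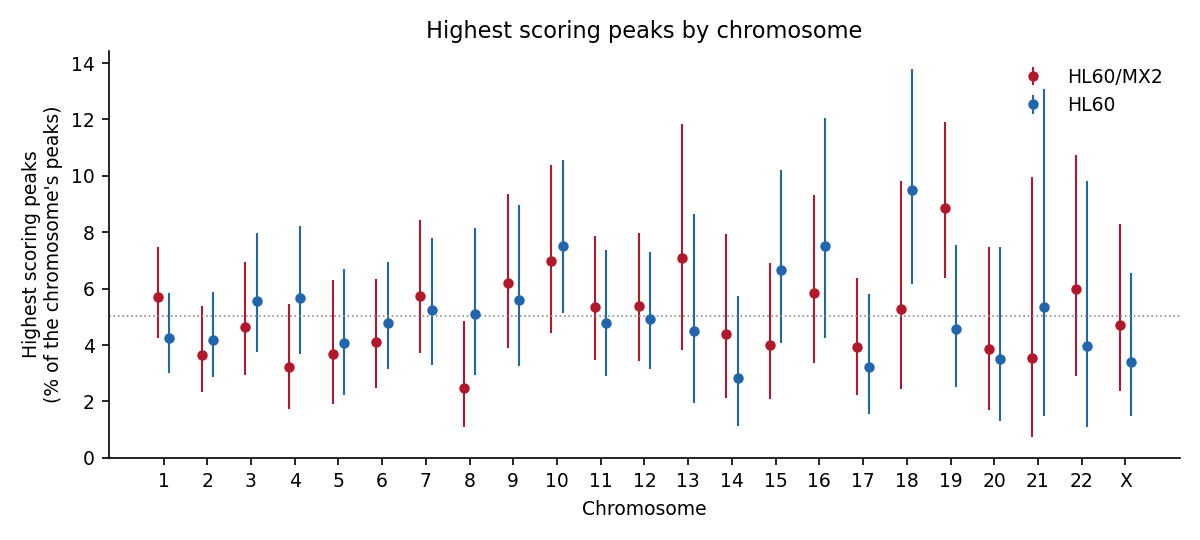
Share of the peaks of each chromosome (y axis) that were among the highest scoring, for HL60/MX2 (red) and HL60 (blue), with exact 95% intervals; chromosomes with under 50 peaks are left out. The dotted line is the overall HL60/MX2 share, and chromosome 19 stands at 8.86% in HL60/MX2 and 4.56% in HL60.

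The 23 members over no protein-coding exon of their strand had scores from 1090 to 3100. The 2 at 3100 lay at chr5:176297691-176298002 (plus) and chr9:141121358-141121553 (plus). The longest, of 1396 bp on chromosome 8, occurred at least 9 times in the genome. Of the members with a gene, 60 lay outside the longest coding transcript and were not classed, among them peaks of PDE4DIP, GCNT2, ZNF574, TRIM41 and PLXDC1 at 3100.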

How the data were processed

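Peak lists of the HL60/MX2 and HL60 IP libraries were used, with positions counted from 1. Per the sources, the authors trimmed reads with cutadapt 1.9.3, aligned them to hg19 with HISAT2 2.0.4 and called peaks with MACS (version not given in the sources used here), keeping peaks over protein-coding exons. The score is the value deposited for each peak, and its scale is not stated. Peaks were chosen by it within a list. Where scores of both lists stand side by side, as for overlapping peaks, this is a description only.

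Peaks were assigned to GENCODE release 44 genes (placed on hg19) by the largest same-strand exon overlap. Up to 5 31-mers per peak were searched in the genome. The peak's strand was read for motifs and runs. Some sequences are not reported here. Intervals of medians are binomial (order statistics). The members and lists were chosen with earlier results of these data known. Named genes were those of the 20 highest and 10 longest members, those with several members, those beside the cut-off, the 10 highest with an HL60 overlap, and up to 6 per gene list (26 lists, and 2 added after the values were seen). Other genes, including those of the peaks at 3100 and of both-high pairs, were named after their values were seen. Python 3.11.15 was used, with scipy 1.17.1, pandas 2.3.3, pysam 0.24.0 and numpy 2.4.6, and the scripts were tested on simulated data.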

Additional observations from a re-analysis of the deposited data

How the results depend on the processing

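Alternatives gave 103 values for 15 results, of which 78 stayed inside the interval of the reported value (for counts, within 1.5 times it) and 25 moved. The same alternative was applied to the other rows in 99 cases, and the members stayed on the reported side of them in 95. This tally includes the counts of genes with a member, whose side the cut-off rule fixes in advance. At the 90th percentile the genes with a member rose to 751 and median GC fell to 50.4%. At the 99th percentile (82 peaks), 75 genes were left, with 69.1% in the CDS, 7.35% in the 3'UTR, a median length of 201.5 bp, GC of 54.1%, 11.0% overlapping an HL60 peak, 34.7% of genes with an HL60 peak (below the 42.3% of the other rows), 45.1% covering a whole exon, 53.7% with GGAAA or GGAAG, 15.9% on chromosome 19 and, as settings added later, 14.6% with a purine run of 20 or more and 14.6% found more than once. Without peaks under 50 bp, the median length was 176.5 bp, GGAAA or GGAAG was in 53.7%, and the median HL60 score of overlapped peaks was 175.2, below the 204.1 of the other rows. In peaks of 100 to 300 bp that motif was in 54.9% (other rows 51.1%). With any isoform counted, the 5' end held 36.9% (other rows 28.0%) and the CDS 42.5%. Requiring 50% of both peaks left 5.16% overlapping an HL60 peak. Exons of the longest coding transcript alone gave 23.8% covering a whole exon (other rows 20.1%). Chosen after seeing the data, purine runs of at least 10, 15 and 30 were in 35.4%, 15.7% and 2.70%, and any repeated 31-mer in 16.5%. Without the 53 members at 3100 the purine run share was 4.80%, and without members found more than once in the genome it was 7.59%; the other results of these 2 settings stayed inside their intervals, with the CDS at 59.4% without the peaks at 3100 (other rows 59.8%). At the 90th percentile the CDS held 59.3% (other rows 59.97%).

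The planned share of soft-masked bases was not run, since the genome used here has no masking. No paired analysis was possible because each line has 1 IP library and no test was made. No library was left out, since each list comes from 1. Without read counts, precision is set here by how many peaks each share rests on.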
